A study of Mus musculus with 6 samples.

Results

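The bile acid and organic anion transporters of the liver were described as a set of 10 genes, taken by exact gene name from a table of 54532 genes. Each gene name matched 1 row of the table. The set holds the sinusoidal uptake carriers Slc10a1, Slco1b2 and Slco1a4, the canalicular transporters Abcb11, Abcb4 and Abcc2, and the basolateral exporters Abcc3, Abcc4, Slc51a and Slc51b. RNA was sequenced from livers of 3 mice labelled Hepatocyte Notch1 KO and of 3 control mice labelled Notch1fl/fl, all untreated. The knockouts carry a deletion of Notch1 in hepatocytes, and the controls carry the floxed alleles. The sources used here give no Cre line, sex or age. The series asks about Notch1 and thrombopoietin made by the liver, and the transporters are not its stated question.

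Hepatocytes take bile salts and other organic anions out of portal blood across the sinusoidal membrane and pump them into bile across the canalicular membrane. Slc10a1 encodes the sodium-driven bile salt carrier NTCP, and the Slco genes encode sodium-independent organic anion carriers. Abcb11 encodes the bile salt export pump, Abcb4 the floppase that delivers phosphatidylcholine to bile, and Abcc2 a pump for glucuronide and glutathione conjugates such as bilirubin glucuronide. Abcc3, Abcc4 and the heteromeric carrier made of the Slc51a and Slc51b products move bile salts and conjugates back to blood, a route known for its induction in cholestasis. The bile acid receptor FXR, encoded by Nr1h4, is known to activate Abcb11, Slc51a and Slc51b.

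The sequences just upstream of the transcription start are shown for the highest uptake carriers and the bile salt export pump, which between them carry bile salts from blood to bile. They are the 250 bases before the RefSeq start on build GRCm38.p6, written 5′ to 3′ on the gene's strand, for Slc10a1 (chr12:80968706-80968955, minus strand), Slco1b2 (chr6:141629268-141629517, plus strand) and Abcb11 (chr2:69342617-69342866, minus strand). Capitals mark exact matches, on either strand, to the motifs searched.
Slc10a1: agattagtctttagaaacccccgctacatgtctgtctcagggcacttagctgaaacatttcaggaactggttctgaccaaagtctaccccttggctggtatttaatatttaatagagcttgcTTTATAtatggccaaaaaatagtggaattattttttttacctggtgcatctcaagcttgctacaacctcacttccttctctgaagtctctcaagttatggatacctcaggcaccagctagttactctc
Slco1b2: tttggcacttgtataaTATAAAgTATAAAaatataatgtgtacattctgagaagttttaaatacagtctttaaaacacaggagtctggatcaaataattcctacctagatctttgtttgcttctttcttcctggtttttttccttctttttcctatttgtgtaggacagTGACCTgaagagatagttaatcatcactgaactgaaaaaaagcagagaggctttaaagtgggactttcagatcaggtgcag
Abcb11: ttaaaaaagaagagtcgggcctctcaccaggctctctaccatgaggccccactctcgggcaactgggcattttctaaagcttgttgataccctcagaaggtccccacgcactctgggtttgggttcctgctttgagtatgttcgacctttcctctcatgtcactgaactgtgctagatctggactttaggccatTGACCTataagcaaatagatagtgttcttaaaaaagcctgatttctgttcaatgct

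The capitals in Slc10a1 are a match to TATAAA on the opposite strand, at -128 to -123 from the start. Slco1b2 holds the nuclear receptor half-site AGGTCA on the opposite strand at -81 to -76 and TATAAA at 2 places. Abcb11 holds AGGTCA on the opposite strand at -56 to -51. RefSeq entries were found for 9 of the 10 transporters, Abcc3 being the other one, and AGGTCA occurred in the upstream window of 6 of the 9 (Abcb11, Abcc2, Slc10a1 at its second start, Slc51a, Slc51b and Slco1b2). The 9 transporters have 11 entries and were counted per gene, whereas the shares of all promoters are per entry. Of all 32851 promoters of the same length, 14.0% hold AGGTCA, 12.4% TATAAA and 33.9% CCAAT, the last found in 4 of the 9. An exact copy of the FXR inverted repeat, 2 half-sites facing each other with 1 base between them, was found in 0 of the 9. The share over all promoters was 0.00609%, so rare that a count of 0 among the 9 says little. Copies with a changed letter were not searched. In Abcb11 the bases aggccatTGACCT differ from the exact repeat by 1 letter and were not counted. These matches describe letters, and no binding was measured.

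The number of reads assigned to genes was 15612924 to 17511961 per library. All levels are deposited FPKM, fragments per kilobase of gene scaled for library size, with SD over 3 livers per group as the error. Notch1 measured 0.301, 0.540 and 0.292 FPKM in the knockout livers and 0.618, 0.965 and 0.854 FPKM in the controls (limma adjusted p = 0.257). Albumin (Alb), a defining hepatocyte marker, measured 20452 to 29086 FPKM in knockouts and 29979 to 37515 FPKM in controls, so the labelled tissue was present in every library. The summed level of 14 hepatocyte markers was 47562 to 60281 FPKM in knockouts and 63651 to 72076 FPKM in controls, without overlap, and most of it is Alb and Apoa2. Of the 14, 10 had lower and 4 higher means in knockouts, where 51.9% of all genes tested had a lower mean. The groups did not overlap for 4, all lower in knockouts, beside 10.6% of all genes tested. By limma 0 had an unadjusted p under 0.05, beside 13.9% of all genes tested, and 0 passed after adjustment, beside 0.025%. The share of reads in mitochondrial genes was 3.64% to 5.53% in knockouts and 6.17% to 8.23% in controls. The part of either in the differences reported here was not tested. In whole liver, fewer cells of a type and less RNA per cell cannot be told apart.

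Transporter levels spanned more than 3 orders of magnitude, and the order of the genes was close to the same in both groups. In knockouts Slc10a1 (126 ± 16.5 FPKM) and Slco1b2 (121 ± 60.1 FPKM) stood highest, and in controls they measured 201 ± 19.5 and 192 ± 21.9 FPKM, so these neighbours did not differ beyond their spread in either group. Abcb11 came next, with 48.3 ± 3.68 FPKM in knockouts and 60.2 ± 10.4 FPKM in controls. Abcc2, Abcc3 and Abcb4 followed, between 19.3 and 27.3 FPKM in knockouts and between 23.9 and 37.5 FPKM in controls. Within knockouts Abcb4 and Abcc3 were not separable, and within controls Abcc2 and Abcc3 overlapped. Slco1a4 measured 4.61 ± 3.73 FPKM in knockouts and 6.06 ± 2.26 FPKM in controls. Slc51b averaged 1.2 ± 0.550 FPKM in knockouts and 0.181 ± 0.0987 FPKM in controls, Abcc4 0.506 ± 0.144 FPKM in knockouts and 0.351 ± 0.0247 FPKM in controls, and Slc51a was the lowest in both groups. Slc51b stood above Abcc4 in the knockouts and below it in the controls.

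**Figure D1:**
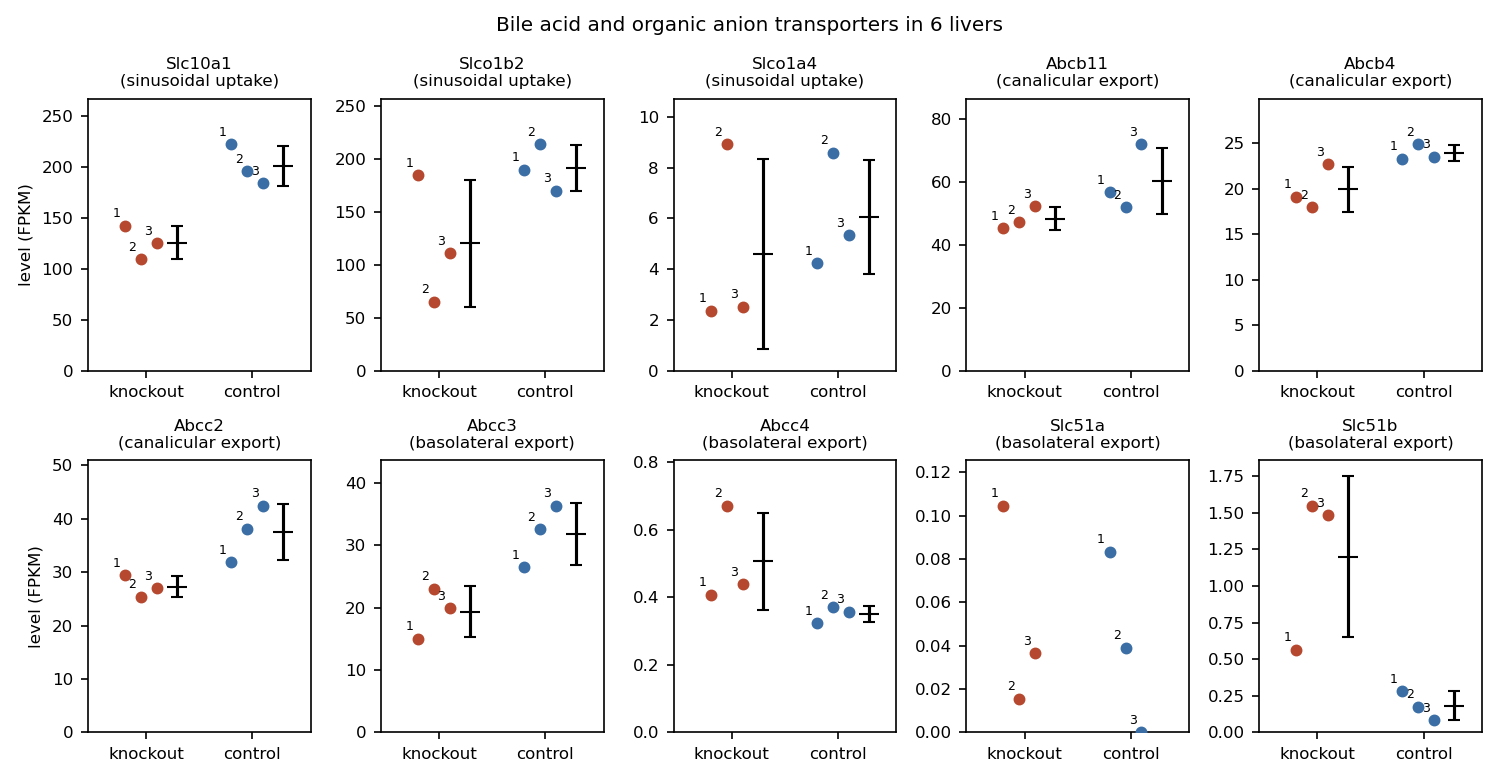
Levels (FPKM, linear axes from 0) of the 10 transporters in each liver, knockout left and control right, with replicate numbers beside the points and mean ± SD as bars (no bar for Slc51a, which is listed at 0 in control 3). Slc10a1, Abcb4, Abcc2 and Abcc3 are lower in every knockout than in any control, while Slc51b and Abcc4 are higher in every knockout.

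Across the set, 0 of the 8 transporters with enough expression to be tested (averaging 0.5 FPKM or more in the 6 livers) passed the threshold of an adjusted p under 0.05 by limma on log2(FPKM + 1), against 0.025% of the 12022 genes tested. Limma voom on the recovered reads also called 0 of the 8. At an unadjusted p under 0.05, 3 were lower (Slc10a1, Abcc2 and Abcc3), beside 7.06% of all genes, and 1 was higher (Slc51b), beside 6.83%. Knockout values lay below all control values in 4 of the 8, beside 10.6% of all genes tested, and above them in 1 of the 8, beside 9.2%. The mean on the log2 scale was lower in the knockouts for 7 of the 8, beside 51.9% of all genes. The median log2 change of the 8 was -0.46, and that of all genes tested was -0.0081. Slc51b entered the test only through its knockout values, so its presence among the 8 carries no weight. Abcc4 and Slc51a were too low to be tested.

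Slc10a1 had the smallest p of the set. It (ENSMUSG00000021135, chromosome 12, 80953183 to 80968705, GRCm38) measured 143, 110 and 125 FPKM in the knockout livers and 223, 196 and 184 FPKM in the controls. Every knockout was below every control, and the control mean was 1.60 times the knockout mean. The log2 fold change was -0.68 (SE 0.14, 95% interval -1.0 to -0.35, limma adjusted p = 0.134). The depth was not limiting for this gene, at 4694 to 4837 reads in knockouts and 6742 to 7342 reads in controls.

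Slco1b2, the main liver organic anion carrier of the 1B type in mice (chromosome 6, 141629518 to 141686646), was uneven among the knockouts. It measured 185, 65.5 and 111 FPKM in knockouts 1 to 3 and 190, 214 and 170 FPKM in controls 1 to 3. Knockout 1 lay inside the control range, while knockouts 2 and 3 lay below it. The log2 fold change was -0.78 (SE 0.34, 95% interval -1.60 to 0.03, limma adjusted p = 0.375). Without knockout 2 it was -0.41.

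Slco1a4, a carrier of the 1A type (chromosome 6, 141805440 to 141856199), varied widely between livers of the same group. It measured 2.38, 8.92 and 2.53 FPKM in knockouts 1 to 3 and 4.25, 8.59 and 5.34 FPKM in controls 1 to 3. Knockout 2 had the highest value of all 6 livers, and the other knockouts had the lowest. The coefficient of variation was 81.1% in knockouts and 37.2% in controls. The log2 fold change of -0.48 (95% interval -1.51 to 0.56, limma adjusted p = 0.679) was -0.99 without knockout 2, -0.21 without knockout 1, -0.24 without knockout 3 and -0.23 without control 2.

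Knockout 2 therefore carried the lowest Slc10a1 and Slco1b2 and the highest Slco1a4 of the 6 livers. In the same liver Slco1a1, the male-predominant relative of Slco1a4, measured 73.8 FPKM, against 137 and 88.9 FPKM in knockouts 1 and 3 and 136 to 163 FPKM in controls (limma adjusted p = 0.305). Hsd3b5, another male-predominant liver gene, chosen after its values were seen, measured 14.0 FPKM in knockout 2, 193 and 106 FPKM in knockouts 1 and 3, and 192 to 243 FPKM in controls. The part of that liver's state in the transporter values was not tested beyond leaving it out. The serum amyloid gene Saa2 measured 813 and 1537 FPKM in knockouts 1 and 3 and 8.62 FPKM in knockout 2, against 3.94 to 12.2 FPKM in controls. Saa3, of the same family, measured 5.44, 3.90 and 6.24 FPKM in knockouts 1 to 3 and 0.947 to 1.61 FPKM in controls, so every knockout was above every control (limma adjusted p = 0.0877). The summed level of 19 acute phase genes was 8853 to 24781 FPKM in knockouts and 10831 to 12625 FPKM in controls. The lowest of these sums was that of knockout 2 (8853 FPKM), with 24781 and 23739 FPKM in knockouts 1 and 3. Of these 19, 18 had higher means on the log2 scale in knockouts, as did 5786 of the 12022 genes tested. By limma 0 of the 19 passed, beside 0.025% of all genes tested. The part of these genes in the transporter values was not tested.

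The 5 sinusoidal carriers Slc10a1, Slco1b2, Slco1a1, Slco2b1 and Slco1a4 together measured 482, 271 and 340 FPKM in the knockouts and 583, 594 and 512 FPKM in the controls, with no overlap. Slc10a1 held 35.7 ± 5.54% of this sum in knockouts and 35.7 ± 2.56% in controls. Slco1b2 held 31.8 ± 7.12% in knockouts and 34.0 ± 1.82% in controls, and Slco1a1 27.3 ± 1.16% in knockouts and 26.4 ± 1.04% in controls. The mean shares of these 3 carriers therefore differed by less than their spread between livers. Slco1a4 held 3.29% of the sum in knockout 2, 0.493% and 0.743% in knockouts 1 and 3, and 0.729% to 1.44% in controls.

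**Figure D2:**
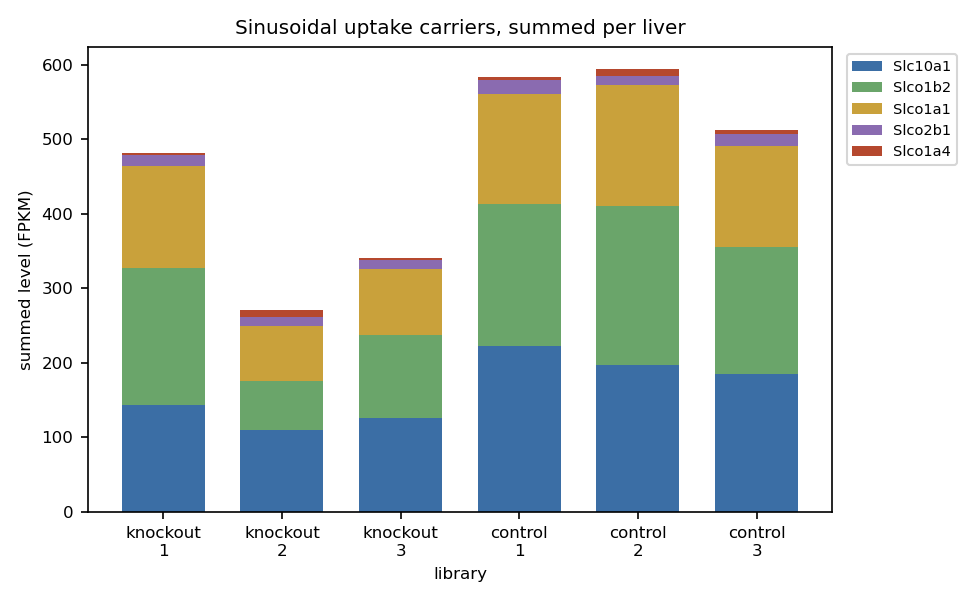
Stacked bars of the FPKM of 5 sinusoidal uptake carriers in each liver, knockouts left and controls right. The knockout sums lie between 271 and 482 FPKM and the control sums between 512 and 594 FPKM, and the smallest bar belongs to knockout 2.

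The 3 canalicular genes summed to 95.5 ± 5.91 FPKM in knockouts and 122 ± 14.1 FPKM in controls, a ratio of 0.786, where the 3 uptake genes of the set had a ratio of 0.630. The difference between these classes was not tested. Abcc2 (chromosome 19, 43782192 to 43840740) measured 29.4, 25.4 and 27.0 FPKM in knockouts and 31.9, 38.1 and 42.4 FPKM in controls, without overlap. Its log2 fold change was -0.44 (SE 0.13, 95% interval -0.74 to -0.14, limma adjusted p = 0.224). Abcb4 (chromosome 5, 8893717 to 8959231) measured 19.1, 18.0 and 22.7 FPKM in knockouts and 23.3, 24.9 and 23.5 FPKM in controls. The groups did not overlap, but knockout 3 and control 1 differed by little. The log2 fold change of Abcb4 was -0.26 (SE 0.11, 95% interval -0.52 to 0.0032, limma adjusted p = 0.361).

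Abcb11 (chromosome 2, 69238282 to 69342616) measured 45.2, 47.2 and 52.3 FPKM in knockouts and 56.7, 51.9 and 71.9 FPKM in controls. Knockout 3 exceeded control 2, so the groups overlapped. The log2 fold change was -0.30 (95% interval -0.64 to 0.03, limma adjusted p = 0.400) and was -0.17 without control 3, the liver with the highest value. The ratio of Slc10a1 to Abcb11 within a liver, a pair chosen after the values were seen, was 3.16, 2.32 and 2.39 in knockouts and 3.92, 3.78 and 2.57 in controls. By a two-sided exact permutation test this gave p = 0.2, and an adjusted p of 1 over the 5 ratios of transporter pairs computed, where 3 livers against 3 cannot go below 0.1.

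The basolateral exporters differed in both directions. Abcc3 (chromosome 11, 94343295 to 94392997) measured 15.0, 23.0 and 19.9 FPKM in knockouts and 26.5, 32.6 and 36.3 FPKM in controls, without overlap. The control mean was 1.65 times the knockout mean, with a log2 fold change of -0.70 (SE 0.18, 95% interval -1.13 to -0.27, limma adjusted p = 0.185). Here knockout 1 was the lowest liver, unlike for Slc10a1 and Slco1b2. Abcc4, which exports conjugates and cyclic nucleotides (chromosome 14, 118482692 to 118706219), measured 0.408, 0.671 and 0.439 FPKM in knockouts and 0.323, 0.371 and 0.358 FPKM in controls, every knockout above every control. That corresponds to 39, 86 and 48 reads in knockouts and 31, 38 and 38 reads in controls. In a fit with no filter on low values its log2 fold change was 0.15 (95% interval -0.06 to 0.36, limma adjusted p = 0.627).

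Slc51b (ENSMUSG00000053862, chromosome 9, 65412714 to 65422955) was the transporter with the largest ratio between groups. It measured 0.566, 1.55 and 1.49 FPKM in knockouts and 0.282, 0.176 and 0.0849 FPKM in controls. Every knockout was above every control, with knockout 1 nearest to them. The values rest on 6, 22 and 18 reads in knockouts and on 3, 2 and 1 reads in controls. Scaled by the size factors of the deposited FPKM, the ratio of summed reads was 7.01, with an exact 95% interval of 2.99 to 20.1 that covers counting error only. Slc51b passed the filter of 0.5 FPKM only through its knockout values. The log2 fold change was 0.87 (SE 0.20, 95% interval 0.39 to 1.34, limma adjusted p = 0.165, and 0.306 with no filter on low values). A pseudocount of 1 shrinks a gene at this level, and the same comparison gave 2.16 with a pseudocount of 0.1 and 2.51 by limma voom on the recovered reads (limma adjusted p = 0.171 and 0.185).

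Its partner Slc51a (chromosome 16, 32474504 to 32487879) was barely detected. It measured 0.105, 0.0156 and 0.0366 FPKM in knockouts and 0.0834, 0.0390 and 0 FPKM in controls, or 5, 1 and 2 reads in knockouts and 4, 2 and 0 reads in controls. At this depth 3 reads correspond to 0.0468 to 0.0627 FPKM for this gene, so a difference between groups was not detectable. No ratio of Slc51b to Slc51a is given, because the Slc51a values are too low to form one.

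Of the exon bases of Slc51b, 12.8% overlap exons of Rasl12 on the opposite strand, and 17.7% of those of Slc51a overlap Pcyt1a. Whether reads were counted by strand is not stated. Rasl12 had 5, 0 and 1 reads in knockouts and 3, 1 and 3 reads in controls. Pcyt1a measured 7.50 to 8.56 FPKM in knockouts and 5.68 to 7.84 FPKM in controls, so reads listed for Slc51a may include some of it. For the other 8 transporters at most 2.87% of 50-base stretches occur in transcripts of another gene.

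**Figure D3:**
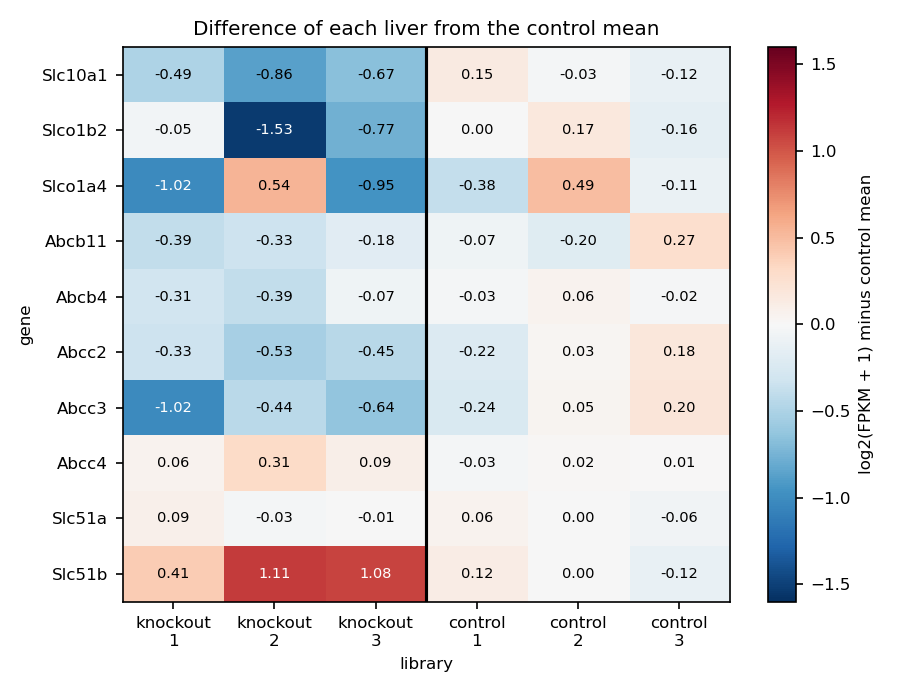
Each cell gives the log2(FPKM + 1) of a transporter in a liver minus the mean of the 3 controls, with knockouts left of the line. Slco1b2 in knockout 2 has the largest negative difference (-1.53) and Slc51b in knockout 2 the largest positive one (1.11), while Slco1a4 has both signs among the knockouts.

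Markers of other liver cells were set beside these values, because the Slc51 carrier is also known from bile duct epithelium. The summed level of 17 cholangiocyte markers was 128 to 176 FPKM in knockouts and 77.1 to 90.9 FPKM in controls, without overlap. Most of it is Aqp1 (55.0 to 73.4 FPKM in knockouts, 41.1 to 48.3 FPKM in controls) and Tff3 (21.7 to 60.1 and 11.7 to 20.1 FPKM). The list had higher means in knockouts for 9 of the 9 tested, where 5786 of the 12022 genes tested did. Of its defining markers, Krt7 measured 2.49, 4.94 and 3.13 FPKM in knockouts and 0.217, 0.337 and 1.26 FPKM in controls, and Krt19 8.15, 12.8 and 9.87 FPKM in knockouts and 0.934, 1.58 and 6.68 FPKM in controls. Epcam stayed at 0.0489 to 0.315 FPKM in knockouts and 0.0327 to 0.206 FPKM in controls, and 3 markers of the list were at 0 in every liver. Krt7 and Krt19 are also made by mesothelium, whose 8 markers summed to 193 to 277 FPKM in knockouts and 95.1 to 159 FPKM in controls. A large part of that sum is Krt8, at 108 to 132 FPKM in knockouts and 90.1 to 108 FPKM in controls. In control 1 it made up 90.1 of the 95.1 FPKM, so there the sum mostly reflects this 1 gene.

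Upk3b, a defining mesothelial marker, measured 26.9, 46.6 and 35.1 FPKM in knockouts and 1.51, 4.05 and 17.1 FPKM in controls. Among the controls, control 3 had the highest level of Krt7, Krt19 and Upk3b. The part of these cells in the Slc51b difference was not tested, and the 1 to 3 reads of Slc51b per control do not order the controls. The summed markers of Kupffer cells (298 to 405 FPKM in knockouts, 310 to 385 FPKM in controls), sinusoidal endothelium (72.4 to 94.4 against 77.1 to 97.8 FPKM) and stellate cells (98.1 to 138 against 88.4 to 125 FPKM) overlapped between knockouts and controls.

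**Figure D4:**
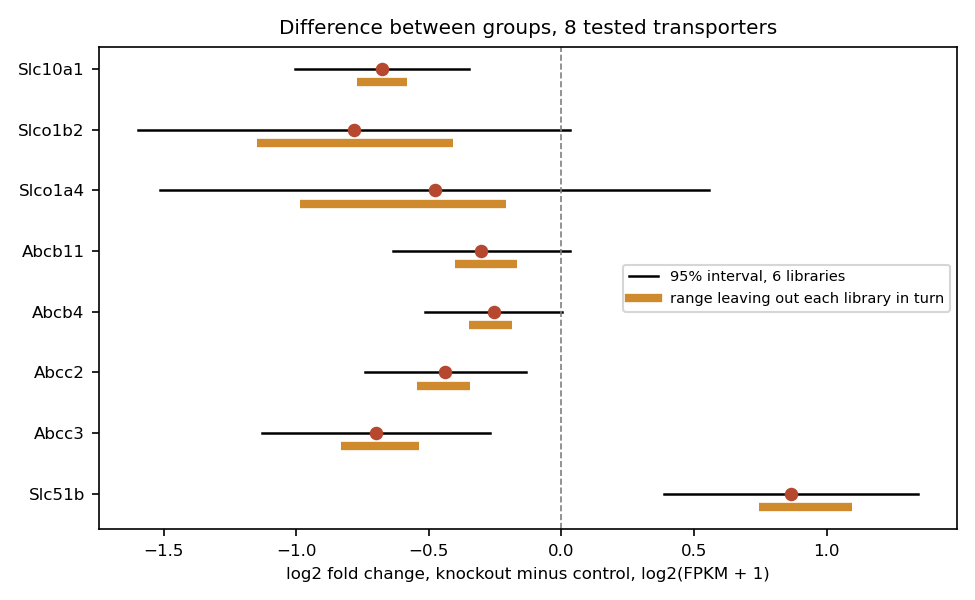
Points give the log2 fold change (knockout minus control, on log2(FPKM + 1)) of the 8 tested transporters, black lines the 95% interval and orange bars the range when each liver is left out in turn. The intervals of Slc10a1, Abcc2 and Abcc3 lie below 0 and that of Slc51b above it, and no orange bar reaches 0. Slc51b passed the expression filter only through its knockout values, so its place here carries no weight.

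Other uptake carriers and related genes, not all of them sinusoidal, were taken from a list of 20. The counts of this and the following lists stand beside 51.9% of all genes tested with a lower mean, and 7.06% lower and 6.83% higher at an unadjusted p under 0.05. Of the 12 tested, 0 passed by limma, 9 had lower and 3 higher means in knockouts, and the median log2 change was -0.26, while at an unadjusted p under 0.05 there were 4 lower and 1 higher. The higher one was Slc10a2, the apical sodium-dependent bile acid carrier known from ileum and bile duct epithelium. It measured 13.8, 9.02 and 12.0 FPKM in knockouts and 5.62, 7.28 and 6.97 FPKM in controls, without overlap (log2 fold change 0.71, limma adjusted p = 0.165). Slc22a18 (34.0 ± 2.08 FPKM in knockouts, 44.7 ± 1.56 FPKM in controls) and Slc27a2, a very long chain acyl-CoA synthetase (195 ± 43.5 and 292 ± 25.6 FPKM), had the smallest p among the lower ones. Slc10a7 measured 0.727 ± 0.143 FPKM in knockouts and 0.616 ± 0.133 FPKM in controls. Slco2b1, an organic anion carrier found in many tissues, measured 13.2 ± 1.48 FPKM in knockouts and 15.6 ± 3.17 FPKM in controls (limma adjusted p = 0.601).

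Of 12 tested genes for other export pumps and canalicular proteins, 0 passed by limma, and 3 were lower and 1 higher at an unadjusted p under 0.05. Their median log2 change was -0.27. Abcc6, a basolateral protein of hepatocytes that mediates ATP release, measured 11.1, 12.3 and 11.0 FPKM in knockouts and 16.1, 16.0 and 17.0 FPKM in controls (limma adjusted p = 0.113). Slc47a1, an organic cation exporter, measured 16.4 ± 2.18 FPKM in knockouts and 22.1 ± 1.03 FPKM in controls. Abcb1b, a multidrug export pump, measured 1.34, 1.29 and 1.16 FPKM in knockouts and 0.325, 0.281 and 0.949 FPKM in controls (limma adjusted p = 0.219). Slc4a2, a chloride and bicarbonate exchanger, measured 2.57 ± 0.223 FPKM in knockouts and 2.39 ± 0.0678 FPKM in controls. Abcg2, a canalicular sulfate conjugate pump, measured 17.6, 6.93 and 11.8 FPKM in knockouts and 15.8, 17.3 and 13.7 FPKM in controls, again lowest in knockout 2.

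Genes for trafficking and anchoring of these transporters at the membrane had a median log2 change of 0.06, near that of all genes. Of 16 tested, 0 passed by limma, 10 had higher and 6 lower means in knockouts, and 3 were higher and 0 lower at an unadjusted p under 0.05. Myo5b, the motor that carries canalicular pumps to the membrane on recycling endosomes, measured 3.51, 3.79 and 3.73 FPKM in knockouts and 2.18, 2.14 and 2.09 FPKM in controls (log2 fold change 0.58, limma adjusted p = 0.103). By limma voom on the recovered reads it passed (adjusted p = 0.0429). Ezr, a membrane to actin linker of bile duct and mesothelial cells, measured 12.3, 20.4 and 17.5 FPKM in knockouts and 1.42, 1.95 and 6.73 FPKM in controls. Control 3 was the highest control for Ezr as for the mesothelial markers, and without it Ezr passed (limma adjusted p = 0.0252, 0.120 with all livers). Rdx, the linker of hepatocyte canaliculi that anchors Abcc2, measured 37.0 ± 1.29 FPKM in knockouts and 40.9 ± 0.904 FPKM in controls. Bcap31 measured 81.4 ± 1.75 FPKM in knockouts and 90.2 ± 5.69 FPKM in controls.

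Among genes of receptors that control transporter genes, the groups overlapped for Nr1h4, Nr0b2, Nr1i2, Nr1i3 and Hnf4a. Nr1h4 measured 54.2, 37.2 and 43.4 FPKM in knockouts and 45.8, 60.3 and 57.7 FPKM in controls (limma adjusted p = 0.511). Nr0b2, the repressor SHP and a target of FXR, measured 26.0, 30.2 and 47.1 FPKM in knockouts and 30.7, 27.5 and 33.5 FPKM in controls (limma adjusted p = 0.842). Both groups overlapped for these and for Nr1i2, which encodes the xenobiotic receptor PXR (30.6 ± 6.87 FPKM in knockouts, 28.3 ± 1.33 FPKM in controls). Nr1i3, which encodes CAR, measured 1.76 ± 0.435 FPKM in knockouts and 2.47 ± 0.368 FPKM in controls. Hnf4a measured 125 ± 23.4 FPKM in knockouts and 133 ± 15.3 FPKM in controls.

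Of 28 regulators tested, 0 passed by limma, 16 had lower and 12 higher means, and 6 were lower and 1 higher at an unadjusted p under 0.05. The smallest p were those of Foxa1 (3.60, 3.69 and 3.09 FPKM in knockouts, 9.82, 7.47 and 6.76 FPKM in controls) and Onecut1 (1.76, 0.934 and 0.498 FPKM in knockouts, 9.64, 4.36 and 12.99 FPKM in controls). Both encode hepatocyte transcription factors. Among those with higher means, Prox1 measured 9.53 ± 0.895 FPKM in knockouts and 7.57 ± 0.963 FPKM in controls, and Rara 2.98 ± 0.219 and 2.47 ± 0.180 FPKM.

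In bile acid synthesis and conjugation, 15 of 16 tested genes had lower means in knockouts, where 51.9% of all genes tested did. Of the 16, 0 passed by limma and 8 were lower at an unadjusted p under 0.05, beside 7.06% of all genes, with a median log2 change of -0.42. Cyp8b1, the sterol 12-alpha-hydroxylase that sets cholic acid output, measured 127, 81.7 and 77.7 FPKM in knockouts and 184, 166 and 176 FPKM in controls. Cyp27a1, the first enzyme of the alternative pathway, measured 154, 126 and 149 FPKM in knockouts and 190, 178 and 215 FPKM in controls. Cyp7a1, counted among the 15, differed little, at 11.3 ± 5.48 FPKM in knockouts and 11.8 ± 3.29 FPKM in controls, with overlap (limma adjusted p = 0.911). Slc27a5 is counted as lower both here and among the other uptake carriers. Cyp39a1, the 1 gene with a higher mean log2 level, measured 8.45 ± 2.31 FPKM in knockouts and 7.98 ± 0.266 FPKM in controls. The median change of the synthesis genes was near that of the transporters (-0.46), and the difference between the lists was not tested.

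A further list held targets, other than transporters, of nuclear receptors or of the transcription factor NRF2. Among its 15 tested genes, 0 passed by limma, and 5 were lower and 0 higher at an unadjusted p under 0.05. Ces2a, a carboxylesterase, measured 124 ± 20.7 FPKM in knockouts and 184 ± 6.74 FPKM in controls, and Ugt1a1, which conjugates bilirubin, 20.4 ± 2.74 and 27.5 ± 3.40 FPKM. The NRF2 target Srxn1 measured 13.6 ± 0.892 FPKM in knockouts and 12.2 ± 1.22 FPKM in controls. Gstm3, a glutathione transferase, measured 30.2, 161 and 67.1 FPKM in knockouts and 34.6, 65.0 and 37.2 FPKM in controls, and like Slco1a4 it was highest in knockout 2.

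The genes whose levels over the 6 livers most resembled those of 2 transporters were listed as a description, since points in a pair of groups give high correlations easily. Over 12019 other genes, Slc10a1 was most like Pgrmc1 (Pearson r = 0.996), Rdh7 (0.994) and Hsd17b11 (0.994). Pgrmc1, a heme-binding membrane protein, measured 516, 451 and 470 FPKM in knockouts and 616, 580 and 572 FPKM in controls. Rdh7, a retinol dehydrogenase, measured 485, 413 and 435 FPKM in knockouts and 607, 587 and 560 FPKM in controls. Slc51b was most like Fbxo4 (r = 0.990), F8a (0.987) and Amer1 (0.986). Among the transporters themselves, r with Slc10a1 was 0.85 for Slco1b2, 0.77 for Abcc2, 0.76 for Abcb4 and 0.10 for Slco1a4. These values share the 6 libraries and the group difference.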

How the data were processed

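RNA was prepared from whole liver with Trizol, selected on poly-T beads and made into libraries with a NEBNext Ultra kit, per the labels' protocols. Tools listed in the submitters' processing notes are featureCounts 1.5.0-p3 and HISAT2 2.0.5, with the build GRCm38. The authors deposited gene-level FPKM, and how it was computed is not given in the sources used here. Multiplied by gene length, 100% of nonzero values fell within 0.1 read of a whole number of reads, which gave the reads quoted. The divisor followed the median-ratio size factors (0.911 to 1.22 in knockouts, 0.914 to 1.01 in controls), so scaling between libraries was part of the deposited FPKM. Columns named NC were taken as the controls by elimination, and 0 columns were left over.

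Knockouts were compared with controls by limma 3.58.1 (R 4.3.3, eBayes with trend, two-sided) on log2(FPKM + 1) for the 12022 genes averaging 0.5 FPKM or more, with Benjamini-Hochberg adjustment over all of them. A pseudocount of 1 understates the change of low genes. On reads simulated for these genes, with the same dispersion for every gene, the fit recovered 0% of 1.5-fold, 41% of 2-fold and 95% of 4-fold changes. The transporters differed in spread (coefficient of variation in knockouts 7.38% for Abcc2 and 81.1% for Slco1a4), so these shares need not hold for each. The labels give no shared litter or day. Deviations from group means correlated at 0.31, 0.16 and 0.10 in same-numbered livers and at -0.25 to 0.11 in others, so the replicate block was fitted as an alternative. Since the labels do not say how the mice were housed, a p-value reflects only how these 6 livers vary. Other alternatives were pseudocounts, filters, scaling, voom, robust fitting, array weights and leaving out each liver.

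The members and lists were chosen with earlier results of these data known. Named genes are the 10 members, 9 regulators and carriers named in the design (1 of them is not reported here), the 2 genes with the smallest p in each direction of each list, the defining markers and the 3 genes most like Slc10a1 and Slc51b. Hsd3b5, Cyp7a1, Slc27a5 and the pair ratios were chosen after their values were seen. Promoter sequences are RefSeq's on GRCm38.p6. Figures used matplotlib 3.10.9.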

Additional observations from a re-analysis of the deposited data

How the results depend on the processing

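Refits under 16 alternatives changed no direction and no call of a transporter. Of the 127 refits of the 8 tested genes, 127 kept both. The filters, robust fitting and the replicate block leave the log2 fold change as it was, so there only the call could change. The count of transporters called was 0 at the main setting and in every alternative. The adjusted p ranged over the alternatives from 0.0914 to 0.373 for Slc10a1, from 0.0913 to 0.370 for Slc51b (15 alternatives, since a filter at 1 FPKM removed it) and from 0.108 to 0.396 for Abcc3. A fit with a replicate block gave an adjusted p of 0.116 for Slc10a1, 0.108 for Abcc3 and 0.174 for Slc51b, and no transporter call changed. Over all genes the count called was 3, against 15 with voom, 1 with a pseudocount of 0.1, 0 with no filter, 0 with the block and 0 to 58 when each liver was left out (58 without control 3, 29 without knockout 2, 0 without knockout 1 or control 2). Scaling to total reads moved the median log2 change of all genes by 0.10, and relative to that median Abcb11 was -0.26 and Abcb4 -0.22 (-0.16 and -0.12 before subtraction). In the other lists, 0 genes passed, but 1 did with voom on the recovered reads (Myo5b) and 0 to 1 when each liver was left out (Ezr without control 3); the cause was not tested. Leaving out each liver, an alternative chosen after the data were seen for these counts, gave 4 to 5 transporters with no overlap on the lower side and 1 on the higher side, beside 14.6% to 18.3% and 13.4% to 15.5% of all genes. The 1 on the higher side was Slc51b, which was tested only through its knockout values. The plain ratio of Slc51b to Slc51a could not be computed, because control 3 had 0 reads of Slc51a. Depth limits Slc51a, Slc51b and Abcc4: 3 reads correspond to 0.211 to 0.283 FPKM for Slc51b, so its control levels lie near that limit.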
